A study of Mus musculus with 2 samples.

Results

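Subunits of the oxidative phosphorylation system were described by complex and by genome of origin in T cells sorted from mouse fat. The set holds every gene whose symbol matched 1 of 6 name patterns for subunits of complexes I to V and for the mitochondrially encoded proteins, with at least 20 unique molecular identifiers (UMIs, counted RNA molecules) over both libraries. The patterns matched 96 symbols of the 32285 genes measured, and 92 passed the minimum: 79 encoded in the nucleus and 13 in mitochondrial DNA. Just inside the minimum were Cox7a1 with 41 UMIs and Cox6b2 with 43. Just outside were Ndufa4l2 with 2 UMIs and Cox7b2, Cox8b and Cox8c with 0. The patterns do not take in the subunits Cox4i1, Ndufab1 and Cyc1 or the electron carrier Cycs, which are given separately.

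Oxidative phosphorylation takes electrons from nutrients along complexes I to IV of the mitochondrial inner membrane, pumps protons across it and uses their return through complex V to make ATP. Most subunits are translated in the cytosol from nuclear transcripts, while a small core of complexes I, III, IV and V is transcribed and translated inside mitochondria, so that each of these complexes is built from transcripts of both genomes. Complex II alone is wholly nuclear. Resting T cells rely largely on this system, and dividing T cells enlarge it together with glycolysis.

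The cells were sorted as TCRb+ CD4+ from visceral adipose tissue (VAT) of mice on the C57BL/6 background, after the fat cells had been removed (the stromal vascular fraction). The WT library came from wild-type mice and the CD27_KO library from mice lacking Cd27, a costimulatory receptor of the tumour necrosis factor receptor family. Per the labels' protocols 10 animals were pooled, without saying whether for each genotype or in all, their ages are not stated, and no animal can be told apart in the files. Each genotype is therefore 1 library, so that genotype and library cannot be told apart. Differences between libraries have no replicate check, and the intervals given (95%, exact) cover counting error only.

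The WT library held 6202 T cells with 15824202 UMIs and the CD27_KO library 6788 T cells with 19784355 UMIs, at a median of 1930.5 and 2200 UMIs per cell. Cd27 itself had 2072 UMIs in WT T cells and 15 in CD27_KO T cells. The labelled cell type was checked on its markers: Cd3e had a UMI in 75.4% of the WT T cells and 79.9% of the CD27_KO ones, and Cd4 in 25.3% and 30.8%, while Cd8a had 8 and 5 UMIs in all. Cytosolic ribosomal protein genes took 32.2% of the UMIs of WT T cells and 27.6% of those of CD27_KO T cells, which leaves more of the total for every other gene. Among 9754 genes with at least 100 UMIs the median log2 ratio of CD27_KO over WT, in CPM (UMIs of the gene per 1e+06 UMIs), was 0.17. The libraries shared 12 cell barcodes. Values of other cell types' markers in the T cells were 106 CPM (WT) and 83.4 CPM (CD27_KO) summed over 8 B cell markers, of which Pax5 was at 0 in both libraries, and 8.66 and 6.27 CPM over 7 stromal markers, of which Pdgfra and Lum were at 0 in both.

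The first comparison was between the libraries over all T cells. Nuclear members took 2.08% of the UMIs in WT T cells and 2.04% in CD27_KO T cells, a log2 ratio of -0.03 (interval -0.038 to -0.025). Mitochondrial members took 2.47% and 2.85%, a log2 ratio of 0.21 (0.20 to 0.21). By gene, 37 of 78 nuclear members with at least 20 UMIs in T cells had a ratio above 0 and the median was -0.01. Of the mitochondrial members, 11 of 13 were above 0 and the median was 0.28. Among all 9754 genes with at least 100 UMIs, 7313 were above 0 and the median was 0.17, so 0 is not the middle of this scale.

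Few nuclear members moved by as much as 1.2-fold. In CD27_KO, 2 of the 76 that had 100 UMIs or more were higher by 1.2-fold (Ndufs6 and Sdhc) and 0 were lower by as much, while among all genes 35.5% were 1.2-fold higher and 7.14% lower. Of the 13 mitochondrial members, 8 were higher and 1 was lower by that measure. At 1.5-fold, mt-Nd4 alone among the 89 members with at least 100 UMIs was higher and none was lower, against 7.02% and 2.86% of all genes. The shares of all genes, here and by state below, were not matched to the members in UMI number. Genes with fewer UMIs have wider counting intervals and can pass a fold by counting error more often. When the median gene was set to a ratio of 1, the nuclear median became -0.18 with 6 of 76 members above 0, 0 higher and 17 lower by 1.2-fold, and the mitochondrial median became 0.11 with 4 members higher and 1 lower. On that scale 15.1% of all genes were higher and 16.0% lower. With ribosomal and mitochondrial UMIs left out of the total, the medians were -0.10 and 0.19. These scales move every gene by the same amount, so they change a list's counts and its sign but not its place beside the median gene, which was below for the nuclear and above for the mitochondrial list.

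**Figure D1:**
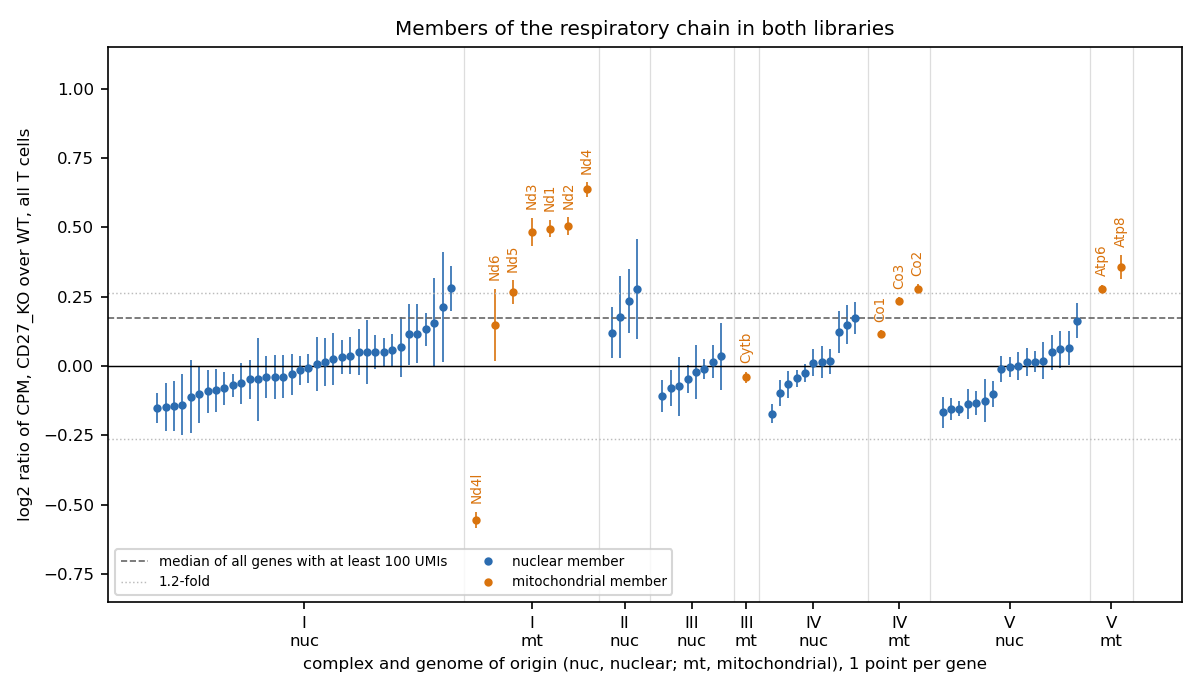
Log2 ratio of CPM, CD27_KO over WT, for each member with at least 100 UMIs in all T cells, grouped by complex and genome; points are genes, bars are 95% counting intervals, the dashed line is the median of all genes and the dotted lines mark 1.2-fold. Nuclear members lie mostly between the dotted lines, 8 mitochondrial members lie above the upper one and mt-Nd4l lies below the lower one at -0.55.

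Complex I, the NADH dehydrogenase, showed the widest spread between its own subunits. Its 36 nuclear members took 0.613% of WT and 0.608% of CD27_KO UMIs (log2 -0.01), and its 7 mitochondrial members 0.472% and 0.574% (log2 0.28). Ndufs6 (chr13:73319838-73328542, - strand), an accessory subunit of the peripheral arm, was furthest up of the nuclear members with at least 100 UMIs in T cells, at 126 CPM in WT and 153 CPM in CD27_KO (log2 0.28, 0.20 to 0.36). Ndufs1, the largest iron-sulfur subunit of the peripheral arm, had 22.6 and 26.1 CPM (log2 0.21, 0.01 to 0.41). The 7 nuclear core subunits, which carry the catalytic centres, gave a summed log2 of -0.07 and the 29 accessory ones -0.01.

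The mitochondrial subunits of complex I form its proton-pumping membrane arm. mt-Nd4 stood at 1063 CPM in WT and 1652 CPM in CD27_KO (log2 0.64). mt-Nd1, which lines the ubiquinone channel, stood at 801 and 1130 CPM (log2 0.50), mt-Nd2 at 727 and 1031 CPM (log2 0.50) and mt-Nd3 at 304 and 425 CPM (log2 0.48). Smaller ratios were found for mt-Nd5, at 447 and 538 CPM (log2 0.27), and for mt-Nd6, the member encoded on the other strand, at 52.6 and 58.3 CPM (log2 0.15, and -0.02 with the median gene set to 1). mt-Nd4l went the other way, from 1324 CPM in WT to 901 CPM in CD27_KO (log2 -0.55). Thus 6 of the 7 were higher in CD27_KO as measured, and the smallest subunit was lower.

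mt-Nd4l and mt-Nd4 are neighbours that share a transcript, and their coding sequences overlap by 7 bases. They are printed because the pair moved in opposite directions while lying on 1 RNA. mt-Nd4l spans chrM:9877-10173 and mt-Nd4 chrM:10167-11544 on the + strand (mm10, GENCODE vM21). The last 60 bases of the first and the first 60 of the second are shown 5′ to 3′, with the shared bases in capitals.
mt-Nd4l end: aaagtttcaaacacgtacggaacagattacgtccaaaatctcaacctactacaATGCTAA
mt-Nd4 start: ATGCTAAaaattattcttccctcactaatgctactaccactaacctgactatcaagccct
In WT there were 0.803 mt-Nd4 UMIs per mt-Nd4l UMI (0.787 to 0.819), and in CD27_KO 1.83 (1.80 to 1.87). Over the 14 T cell states and clusters described further on, this ratio ranged from 0.708 to 0.958 in WT and from 1.66 to 2.02 in CD27_KO, so that the libraries did not overlap. The ratio also differed in cells that are not T cells: it was 0.991 in WT and 2.07 in CD27_KO plasmacytoid dendritic-like cells, 0.913 and 1.94 in B cell-like cells, while in stromal-like cells it was 0.936 (0.751 to 1.17) and 1.22 (0.826 to 1.80), with intervals that overlap. In the barcodes that the cell filter removed it was 0.571 and 1.38. The ratio was thus higher in CD27_KO in each of these populations, beyond counting error in the plasmacytoid dendritic-like and B cell-like cells but not in the stromal-like ones, and the part of library preparation or read assignment in it cannot be told apart from genotype. Of the pair, mt-Nd4l has a near-identical stretch (at least 98% over 100 bases or more) in another annotated transcript, as have mt-Nd3, mt-Co1, mt-Co2, mt-Co3 and mt-Atp6. For mt-Nd4 none was found, but only the last 300 bases were searched. That covers all 297 bases of mt-Nd4l and only the end of the 1378 of mt-Nd4.

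The genes of the other overlapping pair did not move in opposite directions. mt-Atp8 (chrM:7766-7969) and mt-Atp6 (chrM:7927-8607), which encode the mitochondrial ones among the membrane subunits of ATP synthase, share 43 bases, in capitals in the last 60 bases of the first and the first 60 of the second.
mt-Atp8 end: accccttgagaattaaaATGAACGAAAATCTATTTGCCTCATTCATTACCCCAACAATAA
mt-Atp6 start: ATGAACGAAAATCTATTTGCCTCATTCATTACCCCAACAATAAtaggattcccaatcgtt
There were 8.99 mt-Atp6 UMIs per mt-Atp8 UMI in WT (8.78 to 9.22) and 8.52 in CD27_KO (8.36 to 8.69). This ratio was thus slightly lower in CD27_KO, with intervals that do not overlap. Both genes were higher in CD27_KO, mt-Atp8 at 451 and 578 CPM (log2 0.36) and mt-Atp6 at 4059 and 4926 CPM (log2 0.28).

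Complex II, the succinate dehydrogenase that links the tricarboxylic acid cycle to the chain, was the nuclear complex with the highest ratio. Its 4 members took 0.0239% of WT and 0.0271% of CD27_KO UMIs (log2 0.18, 0.12 to 0.24), and all 4 were above 0. The membrane anchor Sdhc had 26.9 and 32.6 CPM (log2 0.28, 0.10 to 0.46), the flavoprotein Sdha 67.0 and 78.9 CPM (log2 0.23), the anchor Sdhd 39.8 and 45.0 CPM (log2 0.18), and the iron-sulfur subunit Sdhb 105 and 114 CPM (log2 0.12). These ratios lay around the median of all genes: with that median set to 1 they were 0.11, 0.06, 0.00 and -0.05. Within states the direction varied. The summed log2 of complex II was above 0 in 10 of 14 states and clusters and below 0 in 4, from -0.17 to 0.45. The interval lay above 0 in 1 of them and below 0 in 0.

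Complex III, the cytochrome bc1 complex, had a ratio near 0 in both genomes when all T cells were pooled, but not within states. The 8 nuclear members took 0.205% and 0.200% of UMIs (log2 -0.04), and mt-Cytb, the subunit that passes electrons between its haems, stood at 2339 CPM in WT and 2275 CPM in CD27_KO (log2 -0.04). Within states the nuclear members of complex III were below 0 in 13 of 14 states and clusters, while mt-Cytb was above 0 in 13 of 14, and from 0.05 to 0.40 in the 8 with at least 100 cells per library. With each state given the same weight in both libraries mt-Cytb turned to 0.18. mt-Nd4l, the other mitochondrial member below 0 in the pooled cells, was below 0 in all 14 and at -0.37 with equal weights.

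Complex IV, cytochrome c oxidase, differed between its genomes. Its 14 nuclear members took 0.524% and 0.513% of UMIs (log2 -0.03), and the 3 mitochondrial catalytic subunits 1.31% and 1.496% (log2 0.19). mt-Co2 stood at 3021 and 3665 CPM (log2 0.28), mt-Co3 at 3967 and 4667 CPM (log2 0.23) and mt-Co1 at 6112 and 6626 CPM (log2 0.12, which became -0.05 with the median gene set to 1). Cox7c (chr13:86044816-86046904, - strand), a small structural subunit, was furthest down of the nuclear members with at least 100 UMIs, at 857 CPM in WT and 761 CPM in CD27_KO (log2 -0.17). Cox5a, which faces the matrix, had 268 and 302 CPM (log2 0.17).

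Complex V, the ATP synthase, followed the same split, with 17 nuclear members at 0.718% and 0.690% of UMIs (log2 -0.06) and 2 mitochondrial ones at 0.451% and 0.550% (log2 0.29). The rotating c ring is encoded by 3 genes for 1 identical mature protein. Of these Atp5g1 had 312 and 278 CPM (log2 -0.17) and Atp5g2 had 610 and 548 CPM (log2 -0.16), whereas Atp5g3 had 229 and 237 CPM (log2 0.05). Atp5e, in the central stalk, had the highest UMI level of the nuclear members, at 1235 CPM in WT and 1110 CPM in CD27_KO (log2 -0.15), followed by Cox8a and Cox6c at 961 and 875 CPM in WT. These levels count end tags of transcripts and are not divided by length.

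T cells were split into 14 states and clusters with the members left out of the clustering genes, and 9 were named from marker genes. Of the named states, 6 had at least 100 cells in CD27_KO and 5 in WT. The libraries differed in composition: naive-like cells, with Ccr7 and Lef1 among their leading genes, numbered 1428 in WT and 338 in CD27_KO, and Th2-like cells, led by Calca, Csf2 and Hdc with Il5, 261 and 1079. Treg-like cells numbered 1463 and 510 and came from 3 clusters, of which 592 WT and 93 CD27_KO cells were in 1 and 683 and 227 in another.

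Within most states the library difference had the same direction as over all T cells and was larger. The mitochondrial share was higher in CD27_KO in 13 of 14 states and clusters, and in each of the 8 with at least 100 cells per library, where log2 ran from 0.26 to 0.49. The nuclear share was lower in 13 of 14, from -0.18 to -0.03 in those 8. The differences no larger than the pooled ones were the nuclear log2 of -0.03 in Treg-like cells and the mitochondrial log2 of 0.17 in unnamed cluster 10, and Tfh/memory-like cells went the other way. In naive-like cells the mitochondrial share was 2.84% in WT and 3.81% in CD27_KO and the nuclear share 1.78% and 1.65%. Th2-like cells had mitochondrial shares of 2.19% and 2.67% and nuclear shares of 2.28% and 2.01%. Treg-like cells had mitochondrial shares of 2.34% and 2.79% and nuclear shares of 2.03% and 1.99%. Their 3 clusters did not share 1 nuclear direction. The nuclear share was 2.01% in WT and 1.93% in CD27_KO in cluster 9, and 2.08% and 2.07% in cluster 13. In cluster 8 (188 and 190 cells) it was higher in CD27_KO, 2.07% (2.03 to 2.12) and 2.14% (2.09 to 2.18), with intervals that overlap. The mitochondrial share was higher in CD27_KO in all 3. With each state given the same weight in both libraries, the log2 ratio over all T cells was 0.33 for the mitochondrial and -0.08 for the nuclear share.

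At the level of single nuclear members, few were 1.2-fold higher in any state, and the number lower varied. In Th1-like cells 5 of 76 were higher and 2 lower, while 28.8% and 8.03% of all genes were. In Th2-like cells 3 were higher and 15 lower, beside 26.3% and 15% of all genes, and in Treg-like cells 4 and 0, beside 26.1% and 9.88%. In naive-like cells 2 of 74 were higher and 16 lower, beside 32.8% and 13.7%, and in NK-receptor-like cells 3 of 61 and 13, beside 20.1% and 16.8%. The shares of members higher were below those of all genes in each of these states. The shares lower were 2.63% in Th1-like and 0% in Treg-like cells, below those of all genes, and 19.7% in Th2-like and 21.6% in naive-like cells, above them. Of the mitochondrial members, 9 of 13 were higher and 1 lower in Th1-like cells, and 10 and 1 in both Th2-like and naive-like cells.

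The state that went against the others was Tfh/memory-like, with 82 WT and 45 CD27_KO cells. Its mitochondrial share was 3.25% in WT, the highest of the WT states, and 2.83% in CD27_KO (log2 -0.20), and its nuclear share 2.56% and 2.60%. In it, mt-Co1 had a log2 of -0.45 and mt-Nd4l of -0.997, while mt-Nd3 was at 0.41 and mt-Nd2 at 0.21.

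By gene, the pattern along the mitochondrial genome was repeated from state to state. mt-Nd4l was below 0 in 14 of 14 states and clusters, from -0.997 to -0.19, and mt-Nd4 above 0 in 13 of 14. mt-Nd2, mt-Nd3, mt-Atp6 and mt-Atp8 were above 0 in all 14. In 7 of the 8 states or clusters with at least 100 cells per library, the member furthest up, among those with at least 100 UMIs there, was mt-Nd4, at log2 0.67 in Th1-like cells, 0.77 in Th2-like, 0.70 in Treg-like and 0.90 in naive-like. The exception was NK-receptor-like cells, where mt-Nd3 had 252 CPM in WT and 506 CPM in CD27_KO (log2 1.004, 0.70 to 1.31). The nuclear members furthest down were Ndufc1 in Th2-like cells (log2 -0.58), Ndufb2 in naive-like cells (log2 -0.52) and Ndufc2 in NK-receptor-like cells (log2 -0.62), the last from 96 and 30 UMIs.

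**Figure D2:**
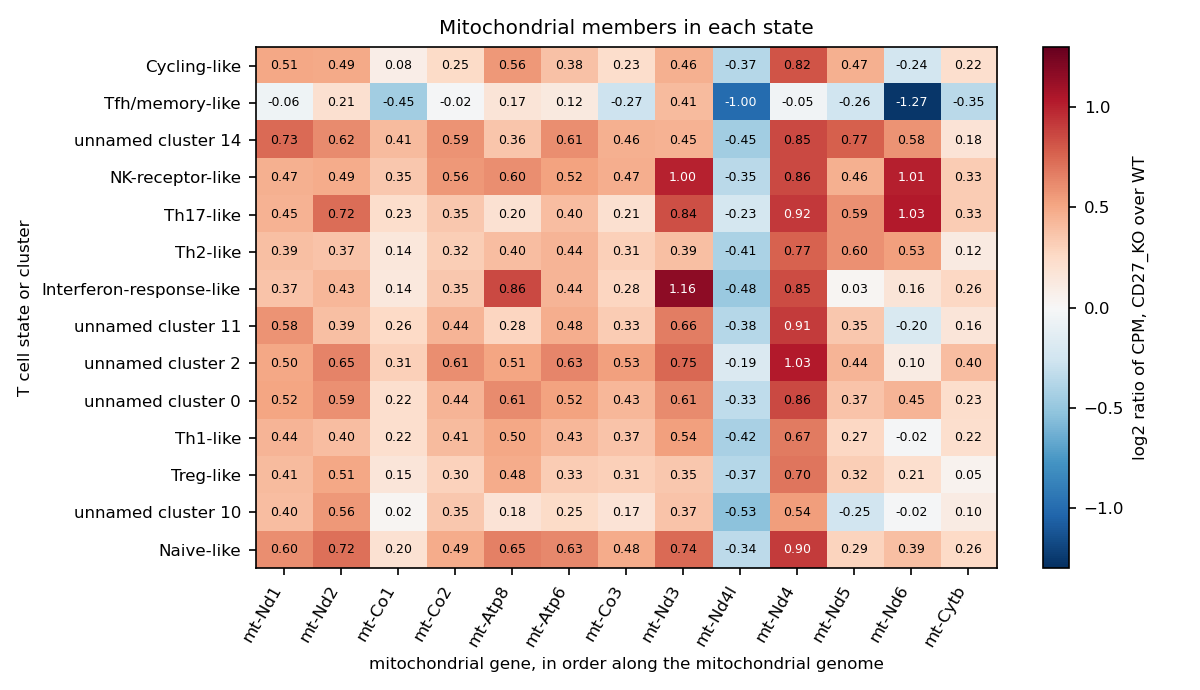
Log2 ratio of CPM, CD27_KO over WT, of the 13 mitochondrial genes (columns, in genome order) in each T cell state or cluster (rows); red is higher and blue lower in CD27_KO, and each cell prints its value. The mt-Nd4l column is blue throughout, from -0.997 to -0.19, beside the red mt-Nd4 column, and the Tfh/memory-like row differs from the others.

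Depth and cell quality moved with the library in part. In 5 bins of UMIs per cell the mitochondrial share lay between 2.35% and 2.55% in WT and between 2.67% and 2.99% in CD27_KO, and the nuclear share between 2.04% and 2.16% and between 2.003% and 2.09%. The mitochondrial ranges did not overlap. Cells with over 5% mitochondrial UMIs made up 0.661% of the T cells in WT and 2.37% in CD27_KO, and the median cell had 2.43% and 2.84%. With cells limited to 5% the log2 ratio of the mitochondrial share was 0.19. Beyond these values the part of cell handling in the difference was not tested.

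Comparing states within a library asks where the respiratory chain transcripts are concentrated. Cycling-like cells, with Mki67 and Top2a, had the highest nuclear share in both libraries, 2.93% in WT (71 cells) and 2.81% in CD27_KO (162 cells). Naive-like cells had the lowest nuclear share and, of the named states with at least 100 cells, the highest mitochondrial share. The number of mitochondrial per nuclear UMIs ran from 0.771 in WT cycling-like cells to 2.32 in CD27_KO naive-like cells. Across the 14 states and clusters the nuclear shares of the libraries had a Pearson r of 0.951 and the mitochondrial shares of 0.501, given as descriptions over cell groups of 2 libraries.

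**Figure D3:**
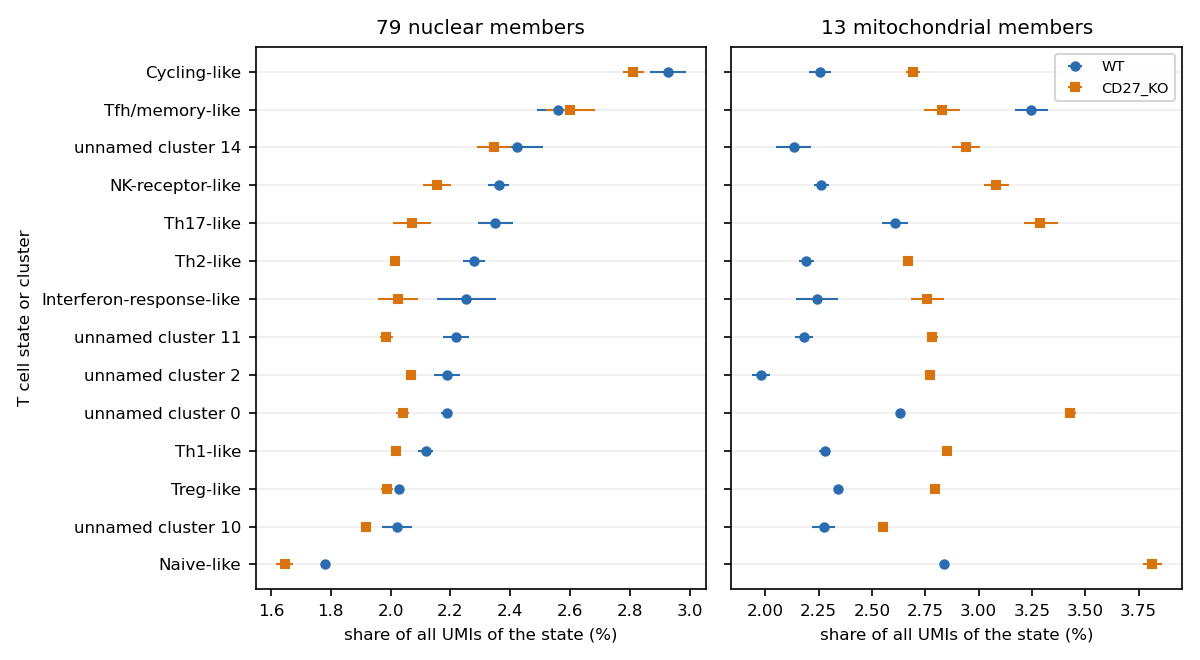
Share of all UMIs taken by the nuclear (left) and mitochondrial (right) members in each T cell state or cluster, in percent, for WT (circles) and CD27_KO (squares) with 95% counting intervals, ordered by the WT nuclear share. Naive-like cells are lowest and cycling-like cells highest in the nuclear panel in both libraries, and CD27_KO lies to the right in the mitochondrial panel in every state except Tfh/memory-like.

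In cycling-like CD27_KO cells 61 of 76 nuclear members were at least 1.2-fold higher than in the other CD27_KO T cells, where 26.8% of all genes were, and 1 was lower by as much, beside 37.5%. The median log2 over the nuclear members was 0.46, against -0.09 over all genes. In both libraries 51 of the 76 were past 1.2-fold higher, the WT side resting on 71 cells. The share of all genes past it in WT, or in both libraries, was not counted. By complex, the summed log2 in CD27_KO was 0.64 for the nuclear members of complex IV, 0.47 for V, 0.41 for I, 0.39 for III and 0.31 for II. The mitochondrial members were not higher: their summed log2 was -0.08 and 0 of 13 were past 1.2-fold higher.

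Cox5a (chr9:57521274-57532426, + strand) was the furthest up in both libraries, at 539 CPM in WT cycling-like cells and 262 in the other WT T cells (log2 1.04), and at 605 and 288 CPM in CD27_KO (log2 1.07). The exceptions among nuclear members included Cox7a2l, at 130 and 156 CPM in WT (log2 -0.27, -0.76 to 0.18) and 143 and 171 CPM in CD27_KO (log2 -0.26, -0.53 to 0.00). Sdhc had 23.6 and 33.0 CPM in CD27_KO, from 20 UMIs in the cycling-like cells, and 35.7 and 26.7 CPM in WT. Cycling-like cells were also deep, with a median of 3819 UMIs in WT and 4942.5 in CD27_KO.

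Naive-like cells must be read against their ribosomal load, 45.9% of UMIs in WT and 42.4% in CD27_KO. In WT 43 of 76 nuclear members were at least 1.2-fold lower than in other T cells, and in CD27_KO 51 of 76, while 64.8% and 61.5% of all genes were lower by as much. The WT count is below and the CD27_KO count near that background, so the low nuclear share is not particular to the members. Without ribosomal and mitochondrial UMIs in the total it turned around: the nuclear share was 3.48% in WT naive-like cells against 3.19% in all WT T cells, and 3.06% against 2.93% in CD27_KO, and Treg-like cells were then the lowest of the named states, at 2.85% and 2.77%. Cycling-like cells stayed the highest on that scale in WT, at 4.09%, while in CD27_KO they and Tfh/memory-like cells both had 3.80%.

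The mitochondrial members did stand apart from all genes in naive-like cells, though not in these cells alone. At least 1.2-fold higher than in other T cells were 6 of 13 in WT and 8 of 13 in CD27_KO, where 7.71% and 12.9% of all genes were. Unnamed cluster 0 also had 8 of 13 higher in CD27_KO, beside 11.8% of all genes, but 0 of 13 in WT. In WT the small Tfh/memory-like state had a higher mitochondrial share than naive-like cells, 3.25% against 2.84%. mt-Cytb had 3192 CPM in WT naive-like cells and 2133 CPM in the others (log2 0.58), and 3817 and 2213 CPM in CD27_KO (log2 0.79). mt-Atp6 had 5133 and 3801 CPM in WT (log2 0.43) and 7919 and 4806 CPM in CD27_KO (log2 0.72). Without ribosomal and mitochondrial UMIs in the total the mitochondrial UMIs of naive-like cells came to 5.54% in WT and 7.10% in CD27_KO, against 3.78% and 4.096% over all T cells.

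Among the nuclear members, 2 were higher in naive-like cells of both libraries by at least 1.2-fold: Cox7a2l, at 221 CPM in WT naive-like cells and 140 in the others (log2 0.66) and 250 and 166 CPM in CD27_KO (log2 0.59), and Ndufa6, an accessory subunit of complex I, at 308 and 231 CPM in WT (log2 0.41) and 337 and 249 CPM in CD27_KO (log2 0.44). Ndufb7 was the furthest down in WT, at 158 and 269 CPM (log2 -0.77). Cox7a2l thus ran opposite to most nuclear members in naive-like cells, and in cycling-like cells its values lay on the other side of 0 from most, with intervals that reach 0.

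**Figure D4:**
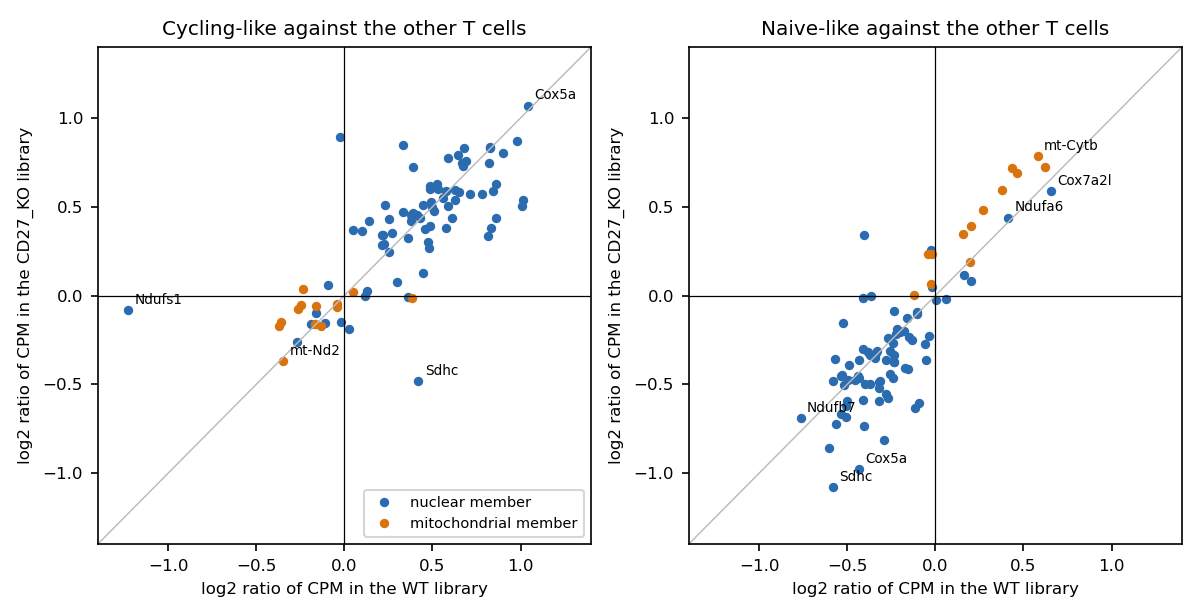
Log2 ratio of CPM in a state over the other T cells of the same library, WT on the x axis and CD27_KO on the y axis, for cycling-like (left) and naive-like (right) cells; each point is a member with at least 100 UMIs, blue for nuclear and orange for mitochondrial. Nuclear members lie mostly above 0 in cycling-like cells with Cox5a furthest out, and mostly below 0 in naive-like cells, where mt-Cytb, Cox7a2l and Ndufa6 are above 0.

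NK-receptor-like cells, with Klrd1 and Xcl1 among their leading genes, had the highest nuclear share of the named states with at least 100 WT cells, 2.36%, and the median nuclear member had a log2 of 0.17 over other WT T cells, where the median of all genes was 0.04. In CD27_KO these medians were 0.08 and -0.04. Past 1.2-fold higher were 18 of 76 nuclear members in WT and 4 of 76 in CD27_KO, beside 29% and 26.9% of all genes, and lower were 1 and 7 of 76, beside 26.4% and 33.7%. The shift was thus small. Above 0 were 62 of 76 nuclear members in WT, 50 in CD27_KO and 40 in both, and in CD27_KO more passed 1.2-fold lower than higher. The share of all genes above 0 was not counted, so only the medians and the 1.2-fold shares set the members beside all genes.

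Between the named states with at least 100 WT cells, the nuclear members with the largest ratio of highest to lowest were Sdhc (1.88, Treg-like over NK-receptor-like, the latter from 13 UMIs), Ndufb7 (1.87) and Cox5a (1.86), both highest in NK-receptor-like and lowest in naive-like cells. Cox5a also differed in direction between libraries by state. It had 268 CPM in WT and 324 CPM in CD27_KO Th1-like cells (log2 0.27, 0.10 to 0.45), 337 and 285 CPM in Th2-like cells (log2 -0.24, -0.46 to -0.03), and 209 and 156 CPM in naive-like cells (log2 -0.42, -0.71 to -0.14).

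Several places in complex IV can be filled by alternative isoforms, and the general form far exceeded the tissue-restricted forms in T cells. Cox6a1, the general form, stood at 179 and 199 CPM in T cells, while Cox6a2, known as the heart and muscle form, had 4 and 7 UMIs in all T cells. Cox6b1 had 430 and 402 CPM and the testis form Cox6b2 had 21 and 15 UMIs. Cox7a2 had 384 and 387 CPM and the muscle form Cox7a1 17 and 20 UMIs, but the related Cox7a2l, counted in the same set, had 156 and 170 CPM. Cox8a had 961 and 932 CPM, and Cox8b and Cox8c had 0 UMIs, which allows up to 3 UMIs in either library. Ndufa4, a subunit of complex IV despite its name, had 475 and 481 CPM, and its relative Ndufa4l2 had 0 UMIs in T cells.

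Cox6a2 was carried by other cells in the sort. The plasmacytoid dendritic-like cluster, 55 cells in WT and 27 in CD27_KO, had 288 and 163 Cox6a2 UMIs, or 799 and 932 CPM, in 48 and 22 of its cells. Its Cox6a1 level was 150 and 206 CPM. Cox6a2 is on the marker list used to name that cluster, with 8 of 8 markers enriched, but was not among the genes used for clustering. B cell-like cells, among whose leading genes were also Lyz2, Apoe and C1qa of macrophages, held in the WT library 11 Cox6a2 UMIs, or 39.7 CPM, and those of CD27_KO held 0. The dendritic-like cells had a median of 5489 and 4794 UMIs, deeper than the T cells. The other 7 markers of the list summed to 129 and 134 CPM in T cells, with all 7 detected.

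**Figure D5:**
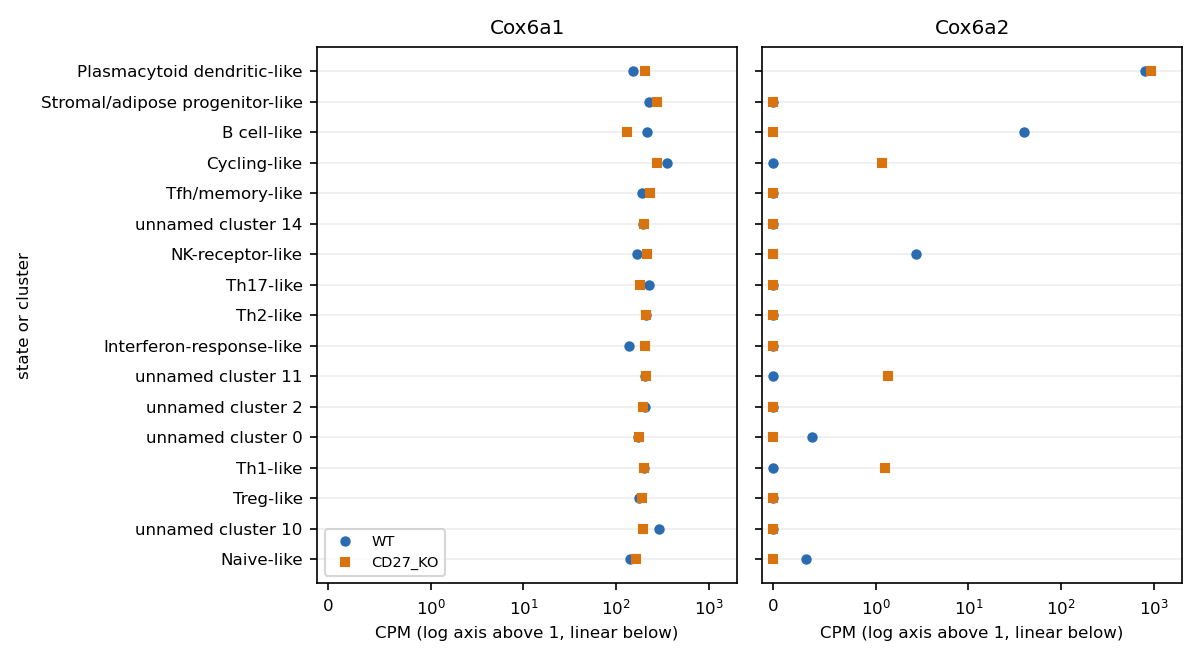
CPM of Cox6a1 (left) and Cox6a2 (right) in each T cell state or cluster and in 3 clusters of other cells, for WT (circles) and CD27_KO (squares), on an axis that is logarithmic above 1 and linear below. Cox6a1 lies between 129 and 354 CPM everywhere, and Cox6a2 reaches 799 and 932 CPM in plasmacytoid dendritic-like cells alone.

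The promoters of nuclear members were searched as a whole set, not only those of the 61 of 76 that were higher in cycling-like CD27_KO cells. Members higher and not higher there were not compared, so the search says nothing about that rise. RefSeq promoters (GRCm38.p6, 300 bases around the start) were found for 65 of the 79, and both strands were searched. The letters CCGGAAG, bound by GABP and other ETS factors, were in promoters of 17 members (26.2%), against 9.93% of the 27025 genes with a promoter. Those genes were taken whether or not they were detected here, and no share was counted over detected genes alone. The NRF1 core motif GCATGCGC was in 10 (15.4% against 3.05%). The YY1 motif AAGATGGCG was in 7 (10.8% against 1.64%) and TATAAA in 6 (9.23% against 15.7%). These are matches of letters and not binding measured here. The promoter of Cox6a1 (chr5:115348909-115349208, - strand) is shown as a member with both an NRF1 and an ETS match, in capitals. Its NRF1 letters match on both strands and overlap, and the ETS match is on the opposite strand. No motif searched was in the window of Cox5a, the member furthest up in cycling-like cells, from which nothing follows about the factors.
Cox6a1 promoter: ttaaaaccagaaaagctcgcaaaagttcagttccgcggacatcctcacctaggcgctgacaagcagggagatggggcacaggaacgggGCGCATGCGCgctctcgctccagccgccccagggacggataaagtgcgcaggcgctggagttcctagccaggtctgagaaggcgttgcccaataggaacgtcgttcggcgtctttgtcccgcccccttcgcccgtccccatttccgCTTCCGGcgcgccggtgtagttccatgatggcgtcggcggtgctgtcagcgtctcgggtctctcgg

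Genes around the chain were read from lists, each with its count past 1.2-fold over all T cells, beside the same 35.5% higher and 7.14% lower of all genes. Of the 4 measured subunits outside the symbol patterns, 0 were past it in either direction, with Cox4i1 at 542 and 573 CPM (log2 0.08) and Ndufab1 at 111 and 99.0 CPM (log2 -0.17). Of 45 assembly factors 6 were higher and 0 lower, with a median of 0.09. Those furthest up were the haem-handling enzymes Cox15 (77 and 148 UMIs, log2 0.62) and Cox10 (157 and 278 UMIs, log2 0.50). Of 21 genes for the upkeep and expression of mitochondrial DNA, 3 were higher and 0 lower: Pnpt1, a mitochondrial RNA-degrading enzyme (log2 0.46), Tk2, a nucleoside kinase (log2 0.38), and Polg, the DNA polymerase (log2 0.28). Of 78 mitochondrial ribosomal proteins 5 were higher and 3 lower, with a median of -0.02. Mrpl52 was furthest down, at 333 CPM in WT and 224 CPM in CD27_KO (log2 -0.57).

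Fuel pathways lay nearer the median gene. Of 16 genes of the tricarboxylic acid cycle and pyruvate dehydrogenase 3 were higher and 0 lower, with a median of 0.18, among them Dlat (log2 0.40), Pdha1 (log2 0.30) and citrate synthase Cs (log2 0.27). Of 15 glycolysis genes 4 were higher and 1 lower, with a median of 0.12, led by the hexokinase Hk2 at 16.3 and 28.6 CPM (log2 0.81, 0.59 to 1.03). Of 8 regulators 4 were higher and 0 lower, with a median of 0.26, among them Yy1 (log2 0.35), the nuclear receptor Esrra (log2 0.34) and Nrf1 (log2 0.29). The coactivator Ppargc1a had 6 UMIs in WT and 1 in CD27_KO T cells. Of 12 carriers and redox genes 1 was higher, Ucp2, an inner membrane carrier, at 429 and 528 CPM (log2 0.30). Of 86 cytosolic ribosomal proteins 6 were higher and 34 lower, with a median of -0.21.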

How the data were processed

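Per the file headers, Cell Ranger 6.1.1 made the matrices, and per the submitters' processing notes the build was mm10. The authors deposited UMI counts per gene and barcode. No header or label says how reads on overlapping or near-identical genes were assigned. Near-identical 3′ stretches were found with BLAST 2.17.0 for 16 of the 92 members, 6 of them mitochondrial, whose counts are less certain. The deposited gene table holds 0 of the copies, so it does not show how their reads were counted.

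Barcodes with fewer than 500 genes or over 10% mitochondrial UMIs (60 in WT, 40 in CD27_KO) were dropped, so the filter itself bounds the mitochondrial share. No doublet caller was run and no doublets were removed. Counts were normalised to 10000 per cell, log-transformed and clustered with scanpy 1.11.5 (2000 variable genes without the members, 30 components, 20 neighbours, resolution 1). Clusters were named "-like" from at least 3 markers. Rebuilt names can differ from those of the study. The 136 WT and 65 CD27_KO cells in clusters that are not T cells were set apart.

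UMIs were summed per library and state, and shares, CPM and ratios computed with exact binomial, Poisson and conditional intervals in scipy 1.17.1. With 1 library per group no test was made. The code was tested on simulated data. Named genes were chosen by rule: all mitochondrial members, the furthest nuclear members, isoform sets, and the furthest members by state. Ndufa6, Cox5a by state, and Cox7a2l and Sdhc in cycling-like cells were singled out after their values were seen. Alternatives covered the cell filter, the denominator, the scaling, thinning, state shares, clustering and the fold. The members and lists were chosen with earlier results of these data known.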

Additional observations from a re-analysis of the deposited data

Results flagged for a closer look

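The mitochondrial share in Tfh/memory-like cells was lower in CD27_KO (log2 -0.20) while it was higher in the other named states. The difference between states was not tested, and it rests on 82 and 45 cells.

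Cox5a was higher in CD27_KO in Th1-like cells (log2 0.27) and lower in naive-like cells (log2 -0.42). The difference was not tested.

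Cox6a2, close to absent in T cells, reached 799 CPM in the WT and 932 CPM in the CD27_KO plasmacytoid dendritic-like cells, which are not T cells and enter none of the shares or fold counts over T cells.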

How the results depend on the processing

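No paired analysis was possible because each genotype has 1 library. Neither summed share nor the nuclear median over all T cells changed sign under the settings given here, but by gene 31 of 79 nuclear and 2 of 13 mitochondrial members changed sign under a scaling, and mt-Cytb turned from -0.04 to 0.18 with equal state shares. The nuclear log2 ratio over all T cells was -0.03 and became -0.065 with cells of at least 1000 genes, -0.12 without ribosomal and mitochondrial UMIs in the total, -0.20 with the median gene set to 1 and -0.085 with equal state shares. The median over nuclear members became -0.042, -0.10, -0.18 and -0.069 in the same order, and -0.017 with cells thinned to 1300 UMIs, which left out 536 WT and 54 CD27_KO T cells. The mitochondrial log2 ratio of 0.21 became 0.23, 0.12, 0.035 and 0.33 in that order, 0.215 with no limit on the mitochondrial share, 0.19 with a limit of 5%, and 0.22 both with per-cell means and with thinned cells.

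The 10 members higher by 1.2-fold, beside 35.5% of all genes, became 5 without ribosomal and mitochondrial UMIs, beside 22.9%. They became 4 with the median gene set to 1, beside 15.1%, and 1 at 1.5-fold, beside 7.02%. The 5 and the 4 were all mitochondrial. The 1 lower, beside 7.14% of all genes, became 18 with the median gene set to 1, beside 16.0%. Of these 18, 17 were nuclear. At 1.5-fold 0 were lower, beside 2.86%. With members of at least 20 UMIs 2 were lower, and the share of all genes at that minimum was not counted. The ratio of the highest to the lowest named state with at least 100 cells was 1.33 for the nuclear share in WT (NK-receptor-like over naive-like). It became 1.46 with no mitochondrial limit (Th17-like highest), 1.24 with 1000 genes, 1.22 with the changed total (where naive-like cells were highest and Treg-like lowest), 1.35 with thinning, 1.36 at resolution 1.5 (Tfh/memory-like highest) and 1.35 with members in the clustering. In CD27_KO it was 1.71, and 1.53 with 1000 genes, 1.37 with the changed total (Treg-like lowest), 1.75 with per-cell means, 1.77 with thinning and 1.59 at resolution 1.5. The same ratio for the mitochondrial share was 1.296 in WT (naive-like over Th2-like), and 1.33 with no limit (Th17-like lowest), 1.75 with the changed total, 1.32 with per-cell means, 1.36 at resolution 0.6 (Th1-like lowest), 1.43 at resolution 1.5 (Tfh/memory-like highest) and 1.25 with members in the clustering. In CD27_KO it was 1.43 (naive-like over Th2-like), and 1.46 with no limit, 1.39 with a limit of 5% and 1.95 with the changed total (cycling-like lowest in both), 1.45 with thinning and 1.38 at resolution 1.5. The cause of these shifts was not tested.

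With 1 library per genotype, depth bounds counting error only, and no interval here covers differences between animals or preparations.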
